A study of Rattus norvegicus with 5 samples.

Results

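The contractile actins, the tropomyosins, the smooth muscle transcripts *Tagln*, *Cnn1* and *Myh11* and the skeletal myosin transcript *Myh1* were followed in primary cultures of the hypothalamus of Wistar rat embryos at day 17. They were read from all probe sets of the rat U34A array that the platform annotation gives to 1 of 10 genes and to no other. This gave 19 of 8740 probe sets, for 10 of the 4736 genes with such a probe set, with 5 for *Tpm1*, 3 each for *Acta2* and *Myh11*, 2 for *Tagln* and 1 each for *Acta1*, *Actc1*, *Actg2*, *Tpm2*, *Cnn1* and *Myh1*. The populations were compared on 5 arrays. GFP+ cells (2 arrays) had been transfected with a plasmid in which a minimal *Trh* promoter drives GFP, and had been sorted for green fluorescence. GFP+/- cells (2 arrays) came from cultures transfected with the same plasmid and went through the sorter without selection. They were a mix of GFP-positive and GFP-negative cells. Non-transfected (NT) cells (1 array) received no plasmid. All cultures had grown in serum-supplemented medium. The RNA was pooled from 6 experiments for GFP+ and from 3 for each of the other populations. The study's methods have both arrays of GFP+ and of GFP+/- cells come from a single RNA pool in separate aliquots, while the labels name them biological replicates, so errors and p-values measure the spread between arrays only.

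Actins polymerise into thin filaments. In muscle these filaments slide along myosin, and tropomyosin lies along the filament and controls access of the myosin heads. Vertebrates have separate actin genes for skeletal muscle (*Acta1*), heart (*Actc1*), vascular smooth muscle (*Acta2*) and enteric smooth muscle (*Actg2*). *Acta2* is also the classic mark of vascular mural cells and of myofibroblasts, which are fibroblasts with contractile stress fibres. *Tagln* (transgelin) and *Cnn1* (calponin) encode actin-binding proteins of smooth muscle, *Tpm1* and *Tpm2* encode tropomyosins, *Myh11* encodes the smooth muscle myosin heavy chain and *Myh1* a heavy chain of fast skeletal muscle. Neurons are not known as a site of smooth muscle actin expression. In bulk RNA, fewer cells of a type and less RNA per cell cannot be told apart.

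Most of these genes had their highest signal in the unselected transfected cells. *Acta2*, *Actg2*, *Tagln*, *Tpm2*, *Cnn1* and *Myh1* each had a probe set with both GFP+/- arrays above the 3 other arrays. *Acta1* and *Actc1*, the striated muscle actins, were brightest in GFP+ cells. The *Tpm1* probe sets went different ways, and none of the *Myh11* probe sets was among the brightest 41% on the array. The 10 genes had been chosen by their signals in GFP+ against GFP+/- cells, so that comparison is given as a description and without a test.

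The smooth muscle actins had the widest range. The brightest *Acta2* probe set (rc_AA900769_s_at) had MAS 5.0 signals, a linear intensity, of 1053 and 2375 on the GFP+ arrays, 6561 and 9059 on the GFP+/- arrays and 441.5 on the NT array. Both GFP+/- arrays lay far above the rest, and both GFP+ arrays above the NT array. The averaged signal was 4.56-fold higher in GFP+/- than in GFP+ cells and 17.7-fold higher in GFP+/- than in NT cells. Enteric *Actg2* (M22323_at) had 239 and 184 on the GFP+ arrays, 1534 and 1194 on the GFP+/- arrays and 161 on the NT array. Here the GFP+ arrays stood next to the NT array. The averaged signal of *Actg2* was 6.45-fold higher in GFP+/- than in GFP+ cells, the largest such ratio among the 19 probe sets, and 8.46-fold higher in GFP+/- than in NT cells. The other *Acta2* probe sets were dim and did not repeat the range. X06801cds_f_at had 106 and 76.5 on the GFP+ arrays, 160 and 123 on the GFP+/- arrays and 90.8 on the NT array, and X06801cds_i_at lay between 2.70 and 16.1 on all arrays. Actin genes are close to identical in their coding parts, so signal from one actin on the probes of another cannot be told apart here.

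The striated muscle actins stood the other way. *Acta1* (J00692_at) had signals of 473 and 351 on the GFP+ arrays, 213 and 178 on the GFP+/- arrays and 277 on the NT array, so that the GFP+ arrays were highest and the GFP+/- arrays lowest. *Actc1* (rc_AA866452_s_at) had 272 and 221 on the GFP+ arrays, 81.7 and 132 on the GFP+/- arrays and 36.7 on the NT array, and there the NT array was lowest. The averaged signals were 2.11-fold (*Acta1*) and 2.31-fold (*Actc1*) higher in GFP+ than in GFP+/- cells. Both ratios depended on the arrays used. With 1 array left out, the log2 difference ran from 0.85 to 1.28 for *Acta1* and from 0.90 to 1.59 for *Actc1*.

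Promoters of actin genes were read because serum response factor, which binds the CArG box, is a known activator of contractile genes. Those of *Acta2*, *Acta1* and *Actc1* are shown, and that of *Actg2*, which held no match, is not. The sequences are the 150 bases before the annotated start in RefSeq (build GRCr8), 5′ to 3′ on the strand of the gene, and capitals mark a CArG box or a CArG box with 1 G or C among its 6 central bases. *Acta2* is chr1:241172504-241172653, *Acta1* is chr19:68784195-68784344 and *Actc1* is chr3:121271828-121271977, all on the minus strand.
Acta2: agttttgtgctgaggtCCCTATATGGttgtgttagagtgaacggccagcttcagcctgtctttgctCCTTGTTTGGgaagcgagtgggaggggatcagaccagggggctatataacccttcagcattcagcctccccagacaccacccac
Acta1: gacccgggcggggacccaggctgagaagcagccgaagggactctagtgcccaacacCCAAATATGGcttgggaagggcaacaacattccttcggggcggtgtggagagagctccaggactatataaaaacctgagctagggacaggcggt
Actc1: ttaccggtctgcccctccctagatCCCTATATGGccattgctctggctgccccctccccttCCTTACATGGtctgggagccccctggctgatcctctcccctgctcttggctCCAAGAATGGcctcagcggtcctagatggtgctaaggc

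Of the 10 genes, 8 had a promoter window of 300 bases, from 250 before to 50 after the start, while *Tagln* and *Myh11* had none. An exact CArG box, whose pattern is the same on both strands, was found for *Acta1* (94 bases before the start) and for *Actc1* (just after the start), against 1.64% of 33469 windows. A CArG box with 1 G or C in its centre was found for *Acta1*, *Acta2* and *Actc1*, against 8.10% of windows. The *Acta2* matches begin 134 and 84 bases before the start. The MCAT element (CATTCC, searched on both strands) was found for *Acta1*, *Acta2*, *Tpm1* and *Myh1*, against 14.2% of windows. The windows of *Actg2*, *Tpm2* and *Cnn1*, whose GFP+/- arrays were highest as for *Acta2*, held none of these letters. *Myh1*, whose GFP+/- arrays were also highest, had the MCAT element. Bases outside the windows were not searched. A match is a description of the sequence and not a shown binding site.

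**Figure D1:**
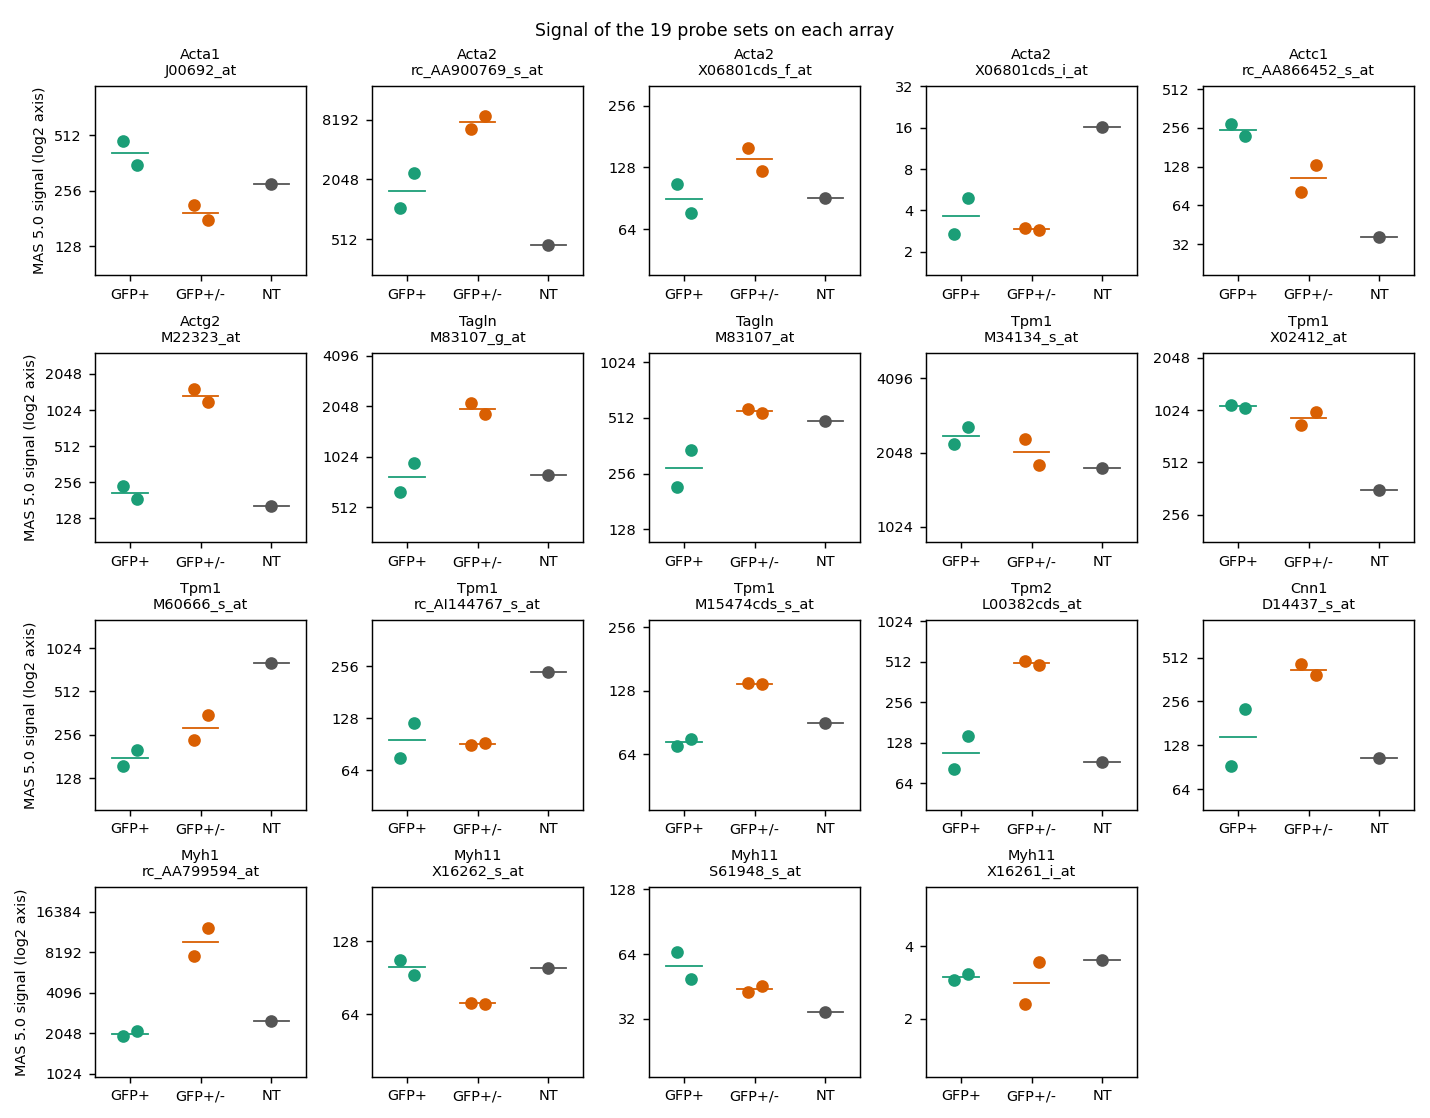
MAS 5.0 signal of each of the 19 probe sets on each array of GFP+, GFP+/- and NT cells, on a log2 axis of its own per panel. Points are arrays and lines the geometric mean of a population. *Actg2* reached 1534 and 1194 with GFP+/- cells, against 161 to 239 on the other arrays.

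The actin-binding proteins of smooth muscle were also brightest in GFP+/- cells. *Tagln* was read by a pair of probe sets to the same sequence. The brighter (M83107_g_at) had 629 and 942 on the GFP+ arrays, 2136 and 1835 on the GFP+/- arrays and 792 on the NT array, with the NT value between those of the GFP+ arrays. The other (M83107_at) had 217 and 342 on the GFP+ arrays, 574 and 545 on the GFP+/- arrays and 490 on the NT array, so that its NT value lay close to those of GFP+/- cells. *Cnn1* (D14437_s_at) had 92.7 and 228 on the GFP+ arrays, 463 and 385 on the GFP+/- arrays and 105 on the NT array. Its GFP+ arrays were wide apart, by 2.46-fold, and both were below both GFP+/- arrays. The averaged signal of GFP+/- cells exceeded that of GFP+ cells by 2.65-fold for *Cnn1* and by 2.53-fold and 2.00-fold for the *Tagln* probe sets.

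Of the tropomyosins, *Tpm2* had both GFP+/- arrays far above the other arrays. *Tpm2* (L00382cds_at) had 81.7 and 144 on the GFP+ arrays, 524 and 482 on the GFP+/- arrays and 92.6 on the NT array, with the NT value between those of the GFP+ arrays and a 4.46-fold higher average in GFP+/- than in GFP+ cells. *Tpm1* is spliced into muscle and non-muscle forms, and its 5 probe sets differed. The brightest (M34134_s_at) stayed between 1773 and 2589 on all arrays. X02412_at had 1091 and 1058 on the GFP+ arrays, 846 and 1003 on the GFP+/- arrays and 355 on the NT array. M60666_s_at ran the opposite way, with 155 and 201 on the GFP+ arrays, 234 and 351 on the GFP+/- arrays and 802 on the NT array, as did the dim rc_AI144767_s_at, with 75.6 and 120.0 on the GFP+ arrays, 89.6 and 92.2 on the GFP+/- arrays and 237 on the NT array. M15474cds_s_at, also dim, had 69.9 and 75.9, 139 and 138, and 90.1. The splice form that each *Tpm1* probe set reads is not given in the sources used here.

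The myosin heavy chains differed from each other. The *Myh1* probe set (rc_AA799594_at) had 1939 and 2113 on the GFP+ arrays, 7665 and 12438 on the GFP+/- arrays and 2534 on the NT array, with a 4.96-fold higher average in GFP+/- than in GFP+ cells. This probe set was designed to an expressed sequence tag. A probe set annotated to *Myh2*, *Myh1* and *Myh8* together (S68736_at) lay between 22.7 and 39.2 on all arrays and had the second GFP+ array, at 38.4, between the GFP+/- arrays. Whether the *Myh1* probe set reads *Myh1* RNA was not tested. The 3 *Myh11* probe sets were below the brightest 41% of probe sets. X16262_s_at had 107 and 93.2 on the GFP+ arrays, 71.3 and 70.5 on the GFP+/- arrays and 99.6 on the NT array, S61948_s_at lay between 34.4 and 65.4, and X16261_i_at between 2.31 and 3.51.

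By averaged signals, the measure of the study's methods, 7 of the 19 probe sets (6 genes) had a GFP+ signal below the GFP+/- signal by over 2-fold, where 4.15% of all probe sets were. These were *Acta2*, *Actg2*, both of *Tagln*, *Tpm2*, *Cnn1* and *Myh1*, and the second of *Tagln* was only just past 2-fold (log2 ratio -1.001). More than 2-fold higher were 2 (*Acta1* and *Actc1*), where 8.82% of all were. The authors' scaling left the median of all probe sets 0.13 above 0 on the log2 scale, with 771 probe sets over 2-fold higher and 363 lower, and quantile normalization made these 565 and 518. Both GFP+ arrays were below both GFP+/- arrays for 10 probe sets (15.4% of all) and above them for 5 (30.4% of all). The median log2 ratio was -0.63 over the 19, and 0.13 over all probe sets. Since these counts come from the comparison by which the genes were chosen, nothing is read from them. The first GFP+ array had lower signals than the second for the brightest *Acta2* probe set, *Tagln*, *Tpm2* and *Cnn1*, and higher ones for *Actg2*, *Acta1*, *Actc1* and X06801cds_f_at of *Acta2*. Without it, 5 probe sets were past 2-fold, and without the first GFP+/- array 6.

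GFP+/- cells were then set against NT cells, which asks whether transfected, unselected cultures differed from untreated ones. This comparison shares the GFP+/- arrays with the one by which the genes were chosen and is not independent of it. *Acta2* was higher in GFP+/- cells by 4.13 on the log2 scale (SE 0.50, adjusted p = 0.0143, limma, Benjamini-Hochberg over 8740 probe sets). *Actg2* was higher by 3.07 (SE 0.29, adjusted p = 0.0109), *Tpm2* by 2.44 (SE 0.41, adjusted p = 0.0262), *Myh1* by 1.95 (SE 0.32, adjusted p = 0.0260) and the X02412_at probe set of *Tpm1* by 1.38 (SE 0.21, adjusted p = 0.0227). The brighter *Tagln* probe set was higher by 1.32 (SE 0.29) at an adjusted p of 0.04995, on the edge of the threshold of 0.05, and the other did not pass (0.19, SE 0.32, adjusted p = 0.793). *Cnn1* (2.01, SE 0.55, adjusted p = 0.0827) and *Actc1* (1.498, SE 0.43, adjusted p = 0.0961) did not pass. *Acta1* (-0.51, SE 0.30) and the *Myh11* probe sets (-0.49 to 0.36) did not pass either. In all, 6 of 19 passed as higher, where 4.20% of all probe sets did, and 0 as lower in limma, where 5.03% did (3 of the 19 at an unadjusted p under 0.05). The lowest adjusted p among those with a lower signal was 0.0564 (M60666_s_at of *Tpm1*, -1.48, SE 0.35). By averaged signals, 8 of the 19 were more than 2-fold higher (12.0% of all) and 3 more than 2-fold lower (15.2% of all). The limma calls rested on few arrays. Without either GFP+/- array 0 of the 19 passed in limma (7 higher and 2 lower by unadjusted p), without the first GFP+ array 4 were higher and without the second 3, with 1 residual degree of freedom left instead of 2. The *Acta2* difference was then 3.89 to 4.36 and the *Actg2* difference 2.89 to 3.25. With a prior without an intensity trend 0 passed (8 higher and 3 lower by unadjusted p), and the smallest of their adjusted p-values, that of *Actg2*, was 0.0748.

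Transfection and passage through the sorter cannot be told apart in this comparison, since NT cells received no plasmid and are not described as sorted. The RNA differed too. The ratio of 3' to 5' signal of the *Gapdh* control, a measure of RNA length, was 5.45 in NT cells, 12.7 and 14.2 in GFP+/- and 14.6 and 17.6 in GFP+ cells, and that of the *Actb* control 10.9, 31.4 and 14.4, and 22.9 and 18.7. The part of RNA length in the differences from NT cells was not tested.

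In GFP+ against NT cells, which share the sorted arrays with the choice of the genes, 3 of the 19 probe sets passed. *Actc1* was higher by 2.74 (SE 0.43, adjusted p = 0.0235, limma) and the X02412_at probe set of *Tpm1* by 1.597 (SE 0.21, adjusted p = 0.0163). The M60666_s_at probe set of *Tpm1* was lower by 2.18 (log2 difference -2.18, SE 0.35, adjusted p = 0.0235). Thus 2 of 19 passed as higher (4.38% of all probe sets) and 1 as lower (4.06% of all). *Acta2* had a difference of 1.84 (SE 0.50, adjusted p = 0.0831), *Actg2* of 0.38 (SE 0.29), *Tpm2* of 0.23 (SE 0.41), *Cnn1* of 0.48 (SE 0.55), *Myh1* of -0.32 (SE 0.32) and the *Tagln* probe sets of -0.042 (SE 0.29) and -0.85 (SE 0.32), and none of these passed. By averaged signals, 3 of the 19 exceeded NT cells over 2-fold (14.5% of all) and 3 lower (12.3% of all). Among the brightest 41% alone *Acta2* passed (adjusted p = 0.00801). With any 1 of the GFP+ and GFP+/- arrays left out, and with a prior without a trend, 0 of the 19 passed in limma, where without the trend an unadjusted p under 0.05 was reached by 3 higher and 3 lower ones. The opposed *Tpm1* probe sets had log2 differences of 1.58 to 1.62 and of -2.37 to -1.99 with 1 array left out.

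**Figure D2:**
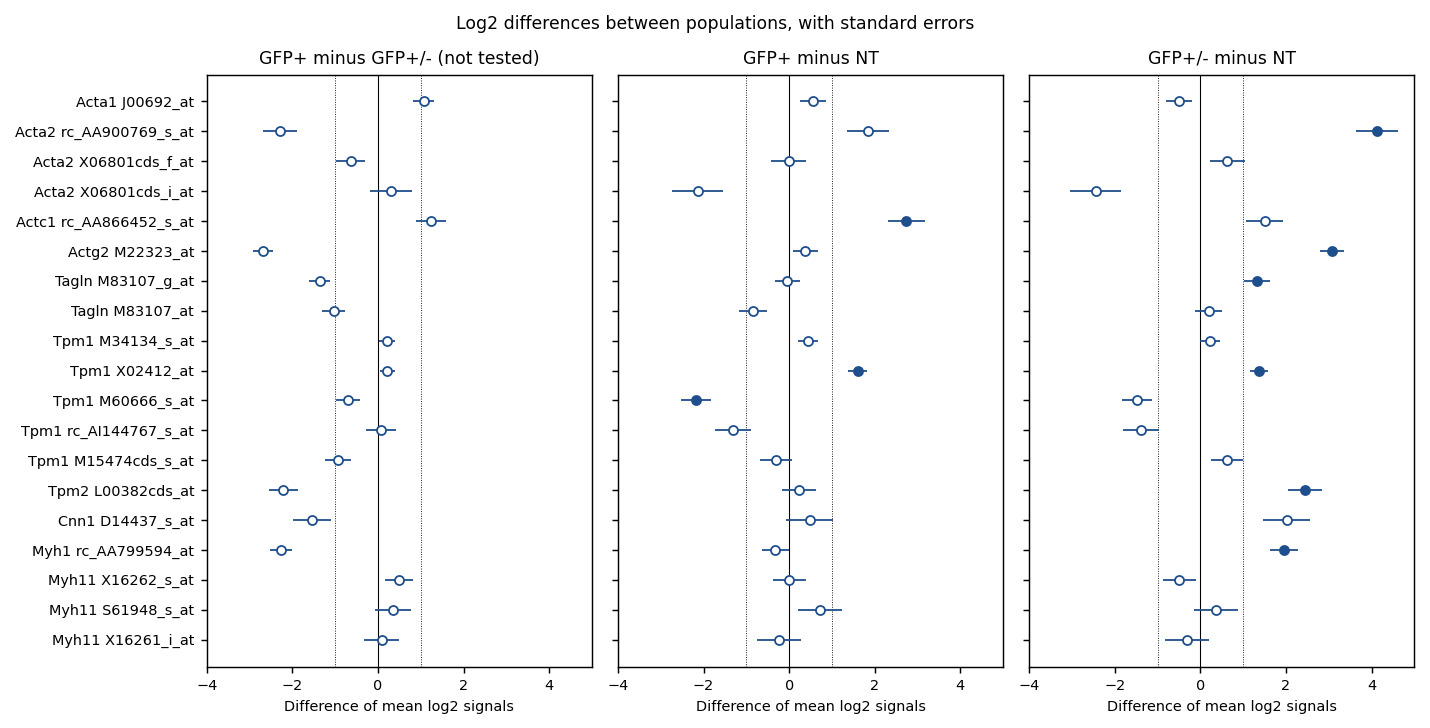
Difference of mean log2 signals for each of the 19 probe sets between GFP+ and GFP+/-, GFP+ and NT, and GFP+/- and NT cells, with bars of 1 standard error from limma. Filled points passed an adjusted p of 0.05, dotted lines mark 2-fold, and the first panel was not tested. In the third panel *Acta2* and *Actg2* lie farthest to the right, at 4.13 and 3.07.

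Other genes of the contractile apparatus were taken from lists, each gene from its brightest probe set. Of 18 measured genes of smooth muscle and stress fibres, 2 were over 2-fold below GFP+/- cells in GFP+ cells (4.15% of all probe sets) and 1, the dim *Pln*, above (8.82% of all), with a median log2 ratio of 0.044. The lower ones were picked for their high GFP+/- arrays, so their difference from NT cells is given without a test. The regulatory light chain *Myl9* had 452 and 680 on the GFP+ arrays, 1267 and 1012 on the GFP+/- arrays and 234 on the NT array (GFP+/- minus NT 2.28, SE 0.32). The integrin *Itga1* had 216 and 286, 605 and 539, and 240.0 (1.25, SE 0.28). Of the brightest members of the list, the calponin *Cnn3* (0.43, adjusted p = 0.542), the neuronal transgelin *Tagln3* (-0.17, adjusted p = 0.655) and the LIM protein *Csrp1* (1.59, adjusted p = 0.0844) did not pass, and the phosphatase subunit *Ppp1cb* was lower in GFP+/- than in NT cells (-3.54, SE 0.22, adjusted p = 0.00514, limma). The desmin transcript *Des*, a defining intermediate filament of muscle, stayed between 14.6 and 21.4 on all arrays. *Myl9*, *Itga1*, *Pln* and *Des* were picked after their values were seen.

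The main probe set of the cytoplasmic actin *Actb* was even over the arrays, while that of *Actg1* was not. *Actb* (V01217_at), which every cell uses, had 13249 and 13779 on the GFP+ arrays, 11802 and 12899 on the GFP+/- arrays and 12516 on the NT array (GFP+/- minus NT -0.021, SE 0.24, adjusted p = 0.974). The control probe set for the 3' part of *Actb* was less even, with 5690.3 and 3803 on the GFP+ arrays, 12107 and 6024 on the GFP+/- arrays and 3301 on the NT array. The other cytoplasmic actin, *Actg1*, had 1715 and 1254 on the GFP+ arrays, 2713 and 1604 on the GFP+/- arrays and 3519 on the NT array. Its GFP+/- minus NT difference was -0.75 (SE 0.37, adjusted p = 0.287, limma). Of 14 measured genes of cytoplasmic actins and actin-binding proteins, 2 had a GFP+ signal over 2-fold below the GFP+/- signal (4.15% of all probe sets) and 1 above (8.82% of all), with a median of -0.26. In GFP+/- against NT cells 2 passed as higher (4.20% of all), the non-muscle tropomyosin *Tpm3* (0.88, SE 0.19, adjusted p = 0.0460) and the talin *Tln1* (2.18, SE 0.45, adjusted p = 0.0402), and 0 as lower in limma (5.03% of all, 1 of the 14 at an unadjusted p under 0.05). Another bright *Tpm3* probe set (L24777_at) had a difference of -0.95 (SE 0.24, adjusted p = 0.0651), so the *Tpm3* probe sets had opposite signs. Thymosin *Tmsb4x* (0.93, adjusted p = 0.112) and ezrin *Ezr* (0.17, adjusted p = 0.760) did not pass. *Tln1* and *Actg1* were picked after their values were seen.

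Genes of striated muscle, of the sarcomere and others such as acetylcholine receptor subunits, were read beside *Acta1* and *Actc1*. Of 32 measured, 0 had a GFP+ signal over 2-fold below the GFP+/- signal (4.15% of all probe sets) and 7 above (8.82% of all), and 16 had both GFP+ arrays above both GFP+/- arrays (30.4% of all). Only 5 of the 32 were among the brightest 41%, and none of the 7 was. In GFP+/- against NT cells 1 of the 32 passed as higher in limma (4.20% of all) and 0 as lower (5.03% of all, 1 of the 32 at an unadjusted p under 0.05). This was the heart troponin *Tnni3*, with 453 and 550 on the GFP+ arrays, 293.5 and 318 on the GFP+/- arrays and 114.5 on the NT array (1.42, SE 0.26, adjusted p = 0.0305). Its other, dimmer probe set did not pass (1.59, SE 0.59, adjusted p = 0.168, limma). The embryonic heavy chain *Myh3*, *Myh7* and the calsequestrin *Casq1* did not pass, with differences of -0.14, 0.36 and 0.48. Of 20 regulators of the serum response factor and TGF-beta pathways, 1 (*Klf4*) had a GFP+ signal over 2-fold above the GFP+/- signal (8.82% of all) and 0 below (4.15% of all). Serum response factor itself (*Srf*) was not measured, nor were *Myocd*, *Mrtfa* and *Mrtfb* of the same list. They had no probe set annotated to them alone. *Egr1*, itself a target of serum response factor, passed in GFP+/- against NT cells (1.59, SE 0.34, adjusted p = 0.0440), with 5934 and 9837 on the GFP+ arrays, 6615 and 7042 on the GFP+/- arrays and 2266 on the NT array, while its other 3 probe sets did not pass (0.065 to 0.96). *Smad2*, *Pdgfra* and *Smad4* did not pass, with -0.27, -0.079 and -0.097.

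Markers of mural cells, which carry smooth muscle actin, and of endothelium were read beside these values. Of 7 mural cell markers measured, 0 passed in limma in either comparison with NT cells (1 lower in GFP+/- cells at an unadjusted p under 0.05). Of all probe sets, 4.20% passed as higher and 5.03% as lower in GFP+/- cells, and 4.38% and 4.06% in GFP+ cells. The signals of the 7 markers summed to 950 and 1171 on the GFP+ arrays, 882 and 999 on the GFP+/- arrays and 1098 on the NT array. Only 3 of the 7 were among the brightest 41% of probe sets, so dim markers make up much of this list. *Pdgfrb*, a receptor used as a marker of pericytes, was not among them, at percentile 51.0 of mean signal. It had 108 and 135, 124 and 103, and 121, and *Cspg4* (NG2) had 150.3 and 217, 183 and 228, and 217. *Anpep* and *Abcc9* differed by 0.044 and -0.79 between GFP+/- and NT cells and did not pass. Their other probe sets, all dimmer, did not pass either but differed from these, with -1.83 and -1.44 for *Anpep* and 1.66 and 0.30 for *Abcc9*. Of 8 endothelial markers only *Icam1* passed, higher in both transfected populations (4.20% of all for GFP+/- and 4.38% for GFP+ cells). Its GFP+/- minus NT difference was 2.21 (SE 0.25, adjusted p = 0.0140, limma). The other, dimmer *Icam1* probe set passed in neither comparison (GFP+/- minus NT 1.11, SE 0.68, adjusted p = 0.399). *Nos3*, *Flt1* and *Slco1a4* had 0.036, 0.14 and 0.37. The endothelial signals summed to 1509 and 1854 on the GFP+ arrays, 1733 and 1649 on the GFP+/- arrays and 999 on the NT array, and without *Icam1* to 852 and 1029, 794 and 875, and 815.

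Fibroblast and matrix genes had their highest summed signal on the GFP+/- arrays, like *Acta2*. Of 26 measured, 10 had a GFP+ signal over 2-fold below the GFP+/- signal (4.15% of all probe sets) and 1 above (8.82% of all), with a median of -0.86, and their signals summed to 25109 and 36506 on the GFP+ arrays, 66430 and 66524 on the GFP+/- arrays and 30929 on the NT array. Against NT cells, 4 passed as higher in GFP+/- cells, where 4.20% of all did (*Timp2*, *Bgn*, *Postn* and *S100a4*, named after their values were seen), and 2 as lower, where 5.03% did (*Spp1* and *Col11a1*, likewise). By averaged signals, 9 of the 26 were over 2-fold higher in GFP+/- than in NT cells (12.0% of all) and 4 lower (15.2% of all). Unlike *Acta2*, *Col3a1*, *Dcn* and *Lum* were highest on the NT array, also named after their values were seen. They had 1318, 124 and 265 there, against 987 and 995, 57.0 and 60.3, and 132 and 59.7 on the GFP+/- arrays. The bright *Sparc* (0.86, adjusted p = 0.0795), *Col1a1* (1.94, adjusted p = 0.0596), *Fstl1* (1.03, adjusted p = 0.134) and *Col1a2* (1.32, adjusted p = 0.187) did not pass there. Neuronal markers stood the other way, with 8 of 18 lower (5.03% of all) and 0 higher (4.20% of all) in GFP+/- than in NT cells in limma (10 and 1 at an unadjusted p under 0.05) and summed signals of 36957 and 31560 on the GFP+ arrays, 24185 and 25996 on the GFP+/- arrays and 50044 on the NT array. Among them *Elavl4* was lower by 1.30 (log2 difference -1.30, SE 0.21, adjusted p = 0.0239) and *Gap43* (-0.79) did not pass. *Thy1* was counted in both the neuronal and the fibroblast list. It had 175 and 201 on the GFP+ arrays, 694 and 574 on the GFP+/- arrays and 317 on the NT array. Probe sets of *Map2* and of *Mapt* passed in opposite directions. For *Map2* the brightest (U30938_at) had -1.70 (adjusted p = 0.0256) and X17682_s_at 2.85 (adjusted p = 0.0130). For *Mapt* the brightest had -0.31 (adjusted p = 0.571), X79321_at -1.35 (adjusted p = 0.0391) and rc_AI227608_s_at 1.78 (adjusted p = 0.0242). Of 12 astrocyte markers 0 passed in limma in GFP+/- against NT cells as lower (5.03% of all) or higher (4.20% of all). By unadjusted p under 0.05, 1 was lower and 1 higher. *Vim* was at 0.51, *Glul* at 0.63, *Apoe* at -0.53 and *Fabp7* at -0.90. The part of fibroblasts, or of any change in the make-up of the cultures, in the smooth muscle signals was not tested.

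**Figure D3:**
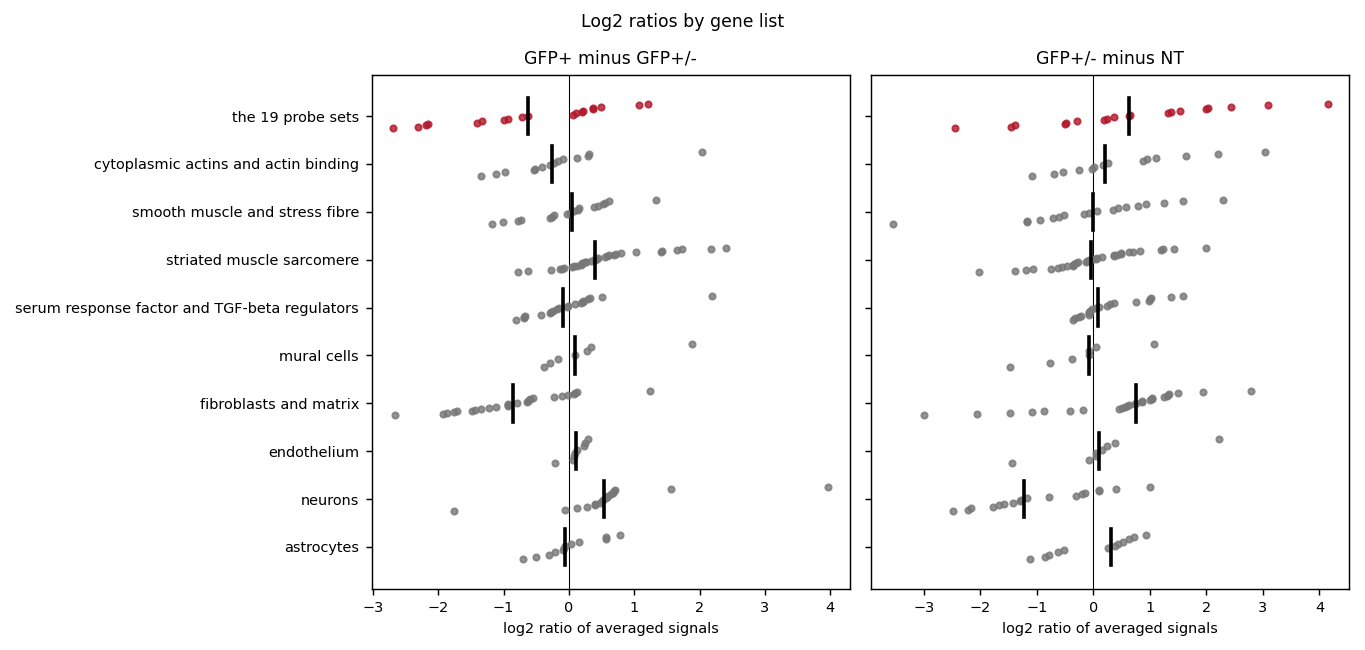
Log2 ratio of averaged signals of GFP+ over GFP+/- cells (left) and of GFP+/- over NT cells (right) for the 19 probe sets (red) and for the genes of 9 lists (grey), 1 point per probe set or gene, with a black bar at the median. On the left the medians of the 19 probe sets and of fibroblast and matrix genes lie at -0.63 and -0.86, and that of mural cell markers at 0.092.

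Among 2940 probe sets of other genes within the brightest 41%, the signals over the 5 arrays most like those of *Acta2* were found for *Mmp9*, *Hba-a3*, *Mgp*, *Pla1a* and *Rcn3*. Likeness was the root mean square distance between log2 signals after each probe set was centred on its mean, which was 0.46 for *Mmp9* and 0.61 for *Rcn3*. Of the contractile genes themselves, *Tpm2* (0.69), *Actg2* (0.77), *Cnn1* (0.81) and *Myh1* (0.93) were nearest to *Acta2*, and the dim *Acta2* probe sets were at 1.42 and 2.42. The gelatinase transcript *Mmp9* had 200 and 543 on the GFP+ arrays, 822 and 958 on the GFP+/- arrays and 46.2 on the NT array, and *Mgp*, the matrix Gla protein transcript, had 637 and 2543, 4099.8 and 4546, and 627. In both, as in *Acta2*, the first GFP+ array was dimmer than the second, by 2.72-fold for *Mmp9*, 3.99-fold for *Mgp* and 2.26-fold for *Acta2*. For *Hba-a3*, *Pla1a* and *Rcn3* this gap was 1.11-fold, 1.19-fold and 1.51-fold. The 5 genes were picked for likeness over these same arrays, so nothing is read from the shared order.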

How the data were processed

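Expression was measured on 5 Affymetrix rat U34A arrays of GFP+, GFP+/- and non-transfected cells. The deposited values are the authors' MAS 5.0 signals, a linear intensity per probe set computed from perfect-match and mismatch probes after scaling with 1 factor per array. The mean without the outer 2% of signals was 500.8 to 501 on each array, which is not the mean that the study's methods state, so the signals are on another scale than the one described there. The 59 control probe sets among 8799 were removed. Log2 was taken with signals floored at 1. Ratios of averaged signals followed the study's methods. The comparisons with the NT array were fitted with limma 3.58.1 (R 4.3.3) over all 5 arrays, with an intensity trend, 2 residual degrees of freedom and Benjamini-Hochberg adjustment over 8740 probe sets at a threshold of 0.05, and were tested on simulated data. The NT population has 1 array, assumed to vary like the others. The brightest 41% (3583 probe sets, mean signal from 175.4) served as an alternative filter, beside quantile normalization, equal medians, 16 added to each signal, a prior without a trend, each GFP+ and GFP+/- array left out and a replicate block. Gene names came from the platform annotation, in which 7006 probe sets had 1 gene, 308 several and 1426 none, and probe sets with several genes were left out. All 10 genes were matched in RefSeq. From each list the 4 genes with the highest mean signal were named, with the 5 nearest profiles to *Acta2*. The members and lists were chosen with earlier results of these data known. The number of arrays limits the precision.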

Additional observations from a re-analysis of the deposited data

How the results depend on the processing

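In GFP+ against GFP+/- cells, 7 probe sets were over 2-fold lower, and 5 to 7 with 1 array left out. Of the 2 over 2-fold higher, 1 was left with quantile normalization, with equal medians and among the brightest 41%, and 1 to 2 with 1 array left out. The median log2 ratio of -0.63 became -1.34 among the brightest 41% and -0.54 to -0.39 with 1 array left out. In GFP+ against NT cells, the 3 over 2-fold lower became 1 among the brightest 41% and 2 to 4 with 1 array left out, and the 3 over 2-fold higher became 3 to 4. The limma calls (1 lower, 2 higher) became 0 and 0 without a trend and with 1 array left out. The median of 0.007 became 0.39 among the brightest 41% and -0.17 to 0.19 with 1 array left out. In GFP+/- against NT cells, the 3 over 2-fold lower became 1 among the brightest 41%. The limma calls as lower went from 0 to 1 with 16 added (X06801cds_i_at of *Acta2*, adjusted p = 0.0402) and to 1 among the brightest 41% (M60666_s_at of *Tpm1*, adjusted p = 0.00718), and the 6 as higher became 0 without a trend and 0 to 4 with 1 array left out. The median of 0.62 became 1.38 among the brightest 41% and 0.44 to 0.62 with 1 array left out. Fits without an array have fewer residual degrees of freedom, and the brightest 41% hold 11 of the 19 probe sets. The cause of the other changes was not tested. The median of GFP+ against NT cells and 9 single differences changed sign under some alternative, and 0 of these 9 had passed a threshold. The highest was that of *Cnn1* in GFP+ against NT cells, 0.475, which was -0.17 without the second GFP+ array.

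The labels number the GFP+ and GFP+/- arrays, and the deviations of same-numbered arrays had a correlation of 0.063 over 8740 probe sets and of 0.197 over the 3583 brightest. With 2 pairs and no shared batch in the labels, the numbers were not taken to pair the arrays. The replicate number as a block cannot move the differences or the 2-fold counts of GFP+ against GFP+/- cells, since the numbers are balanced. For *Acta2* (-2.29) the SE was 0.22 with it and 0.40 without. The NT array has no partner for a block.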

Other observations

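Of the probe sets annotated to several genes, 5 include one of the contractile genes. Of those given to both *Acta2* and *Actc1*, X80130cds_f_at had signals of 68.7 and 114 on the GFP+ arrays, 181 and 194 on the GFP+/- arrays and 99.6 on the NT array, with both GFP+/- arrays highest as for the brightest *Acta2* probe set. The rc_AI104567_g_at probe set had 268 and 139.8 on the GFP+ arrays, 52.4 and 109.6 on the GFP+/- arrays and 77.8 on the NT array, with both GFP+ arrays highest as for *Actc1*. X80130cds_i_at had 188 and 327, 169 and 219, and 261, with overlapping populations, and rc_AI104567_at lay between 1.01 and 15.3. In GFP+/- against NT cells none of these passed in limma, with log2 differences of 0.91 (SE 0.43), -0.037 (SE 0.62), -0.44 (SE 0.41) and 2.95 (SE 1.37), and 0 of them were past an unadjusted p of 0.05.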
